A study of Mus musculus with 9 samples.

Results

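The genes of the translation initiation factors eIF1 to eIF6 and of the eIF4E-binding proteins were followed in sorted mouse fetal erythroblasts of 3 genotypes. Members were the genes whose symbol begins with Eif1 to Eif6, read from probe sets listed for a single gene symbol, without the eIF2 kinases Eif2ak1 to Eif2ak4 and without the X- and Y-linked Eif2s3x and Eif2s3y. The rule gave 43 genes of the 19938 genes that had such a probe set, and each gene with several probe sets was represented by the one with the highest mean over the 9 arrays. Their 52 probe sets fell into eIF1 (4 genes), eIF2 (3 genes), eIF2B (5 genes), eIF3 (11 genes), eIF4A, eIF4B and eIF4H (6 genes), eIF4E (5 genes), the eIF4E-binding proteins (2 genes), eIF4G (2 genes), eIF5 and eIF5A (4 genes) and eIF6 (1 gene). Eif1, Eif2s1, Eif3g, Eif3j1, Eif3j2, Eif4ebp3 and Eif4g1 are not among the members, since no single-symbol probe set carried their names.

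The study compared beta-thalassemic erythroblasts with normal ones in E14.5 mouse embryos. The Th3 allele is a germline deletion of the adult beta-globin genes, present in every cell of the animal. The 3 genotypes were Th3/Th3 (homozygous), Th3/+ (heterozygous) and wild type (+/+), with 3 biological replicates each; all were offspring of Th3/+ parents on a 129SV background backcrossed to C57BL/6 for 9 generations, and no other allele or treatment was listed. From each dissociated liver preparation, cells that were positive for CD71 (the transferrin receptor) and Ter119 and large by forward scatter (FSChigh) were sorted, and total RNA was amplified, biotin-labelled and hybridised to whole-transcript arrays. Whether livers were pooled within a replicate is not stated in the labels, so p-values measure the spread between these samples, which may be technical in part. Values are log2 signals, in which a step of 1 is a doubling, and levels were compared only within a probe set.

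Translation of most mRNAs starts when eIF2, carrying GTP and the initiator tRNA, joins eIF1, eIF1A, eIF3 and eIF5 on the small ribosomal subunit, and when this complex is brought to the mRNA cap by eIF4E, the scaffold eIF4G and the helicase eIF4A. At the start codon eIF5 makes eIF2 hydrolyse its GTP, eIF5B joins the large subunit, and eIF2B, a guanine nucleotide exchange factor, recharges eIF2. Erythroblasts make globin in great excess over other proteins, and the heme-regulated kinase Eif2ak1 adjusts eIF2 activity to the supply of heme in these cells. Phosphorylation of eIF2 blocks eIF2B, while 4E-binding proteins compete with eIF4G for eIF4E unless the kinase mTORC1 phosphorylates them.

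Of the 43 genes, 41 were tested, that is, were above the 40th percentile of their array (4.52 to 4.62) on at least 3 arrays. Eif4a3l1, a copy of the Eif4a3 helicase gene, averaged 2.93 in Th3/Th3, 3.33 in Th3/+ and 3.18 in wild type cells and was below that floor in all 3 genotypes. Eif4e1b, an oocyte-type relative of eIF4E, averaged 4.59 in Th3/Th3, 4.37 in Th3/+ and 4.50 in wild type cells and was likewise not tested.

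In Th3/Th3 erythroblasts 9 initiation factor genes rose and 2 fell relative to wild type, with both falls in the eIF5 group. The genes that rose were Eif2b2 and Eif2b4 of the exchange factor eIF2B, Eif3e, Eif3h and Eif3k of eIF3, the helicase gene Eif4a2 and its cofactor Eif4h, the 4E-binding protein gene Eif4ebp1, and Eif6. The genes that fell were Eif5 and Eif5b, which act at start codon recognition and at subunit joining. Fold changes of the called genes lay between 1.28 (Eif3k) and 2.08 (Eif5). Calls are at an adjusted p under 0.05 (limma, Benjamini-Hochberg over all 17742 probe sets tested). The 11 called genes made up 26.8% of the 41 tested, with 22.0% higher and 4.88% lower, whereas 12.3% of all probe sets tested were called, 7.31% higher and 4.98% lower. The median difference, Th3/Th3 minus wild type, was 0.19 over the 41 genes and 0.00 over all probe sets, and 31 of the 41 differences (75.6%) were above 0, against 50.0% of all. The genotypes' arrays did not overlap for 21 of the 41 genes (51.2%), 17 with Th3/Th3 higher and 4 with Th3/Th3 lower, against 27.5% of all probe sets (15.4% higher and 12.1% lower). Th3/Th3 replicate 1 and Th3/+ replicate 1 lay farther from their own genotype than the other arrays did: 12% and 10.1% of all probe sets differed there by over 0.5 from the mean of the genotype's other arrays, against 3.4% to 7.2% on the other 7 arrays. Without both, 11 genes rose, 7 of them among the 9 (Eif2b4 and Eif4h were not called), and the same 2 fell. The count of 9 depended on single arrays: it was 4 without wild type replicate 1, without wild type replicate 2 or without Th3/Th3 replicate 3, and 5 without wild type replicate 3. The count of 2 was 1 without wild type replicate 3, when Eif5b had an adjusted p of 0.0582.

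**Figure D1:**
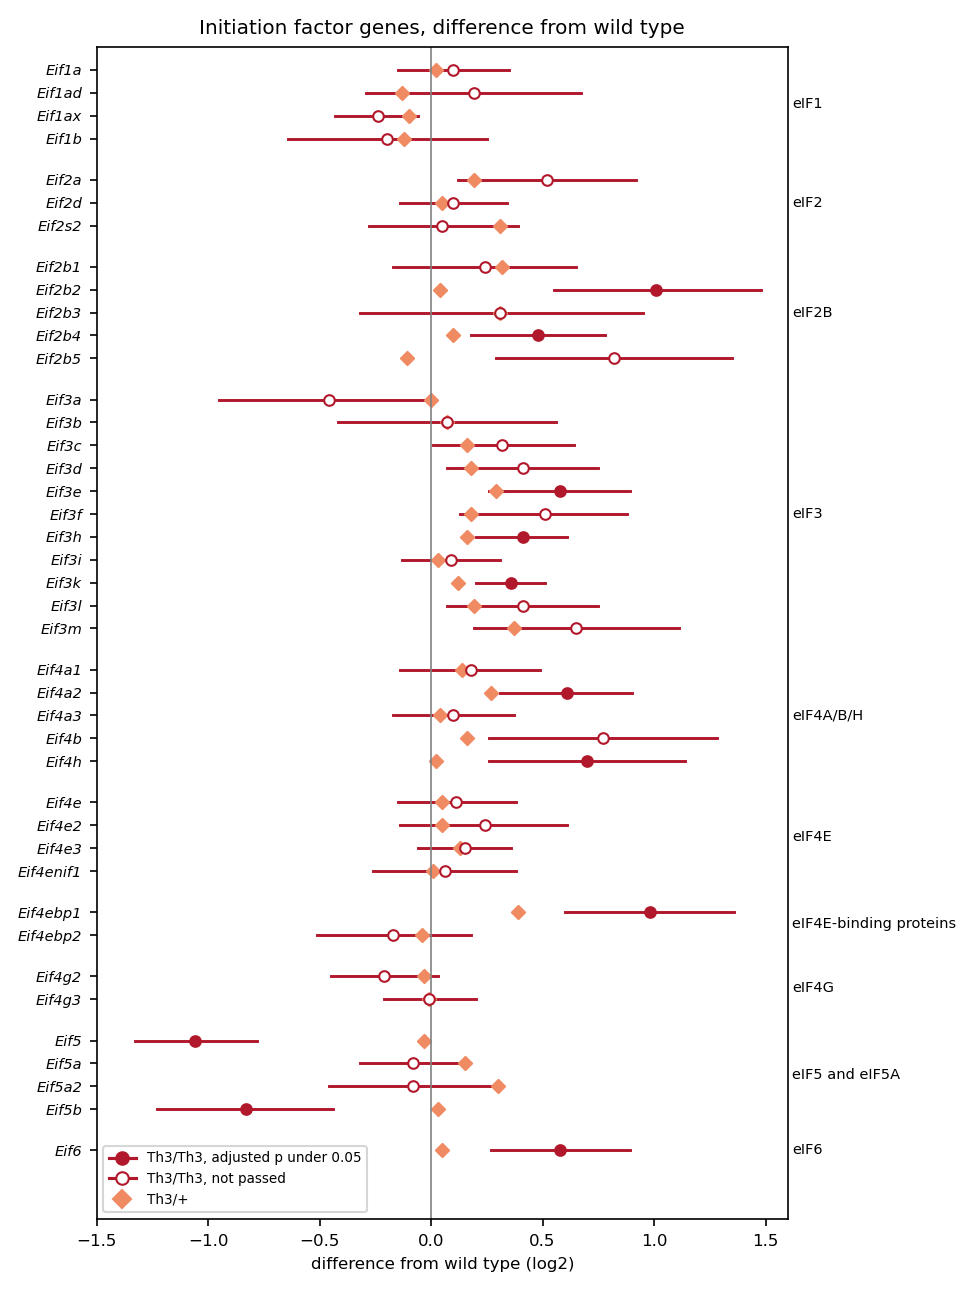
Differences in log2 signal from wild type for the 41 tested initiation factor genes, arranged by factor group. Circles are Th3/Th3 minus wild type with 95% intervals, filled where the test passed at an adjusted p under 0.05, and diamonds are Th3/+ minus wild type, where no gene passed; the eIF2B and eIF3 circles lie mostly to the right of 0 and those of the 4 genes of eIF5 and eIF5A to the left of it.

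The labelled cell type was checked against markers. Of 10 erythroblast markers 8 were tested and 6 of these fell in Th3/Th3 cells (Tfrc by 1.12, Epb42 by 1.11, Slc4a1 by 0.83, Alas2 by 0.66, Tal1 and Gata1 by 0.56 each, on the log2 scale). Epor (difference -0.32, adjusted p = 0.272) and Klf1 (-0.36, adjusted p = 0.061) were not called by limma. The summed linear signal of the erythroblast markers measured was 12493 to 15375 in Th3/Th3, 23224 to 24213 in Th3/+ and 23333 to 26741 in wild type arrays. Erythroid markers were thus present in every genotype, with a lower sum in Th3/Th3, to which the brightest probe sets add most. Of 14 macrophage markers 11 were tested and 3 fell in Th3/Th3 (C1qb, Tyrobp and Fcer1g), with summed signals of 513 to 594 in Th3/Th3, 687 to 1161 in Th3/+ and 704 to 923 in wild type arrays, and Csf1r, Mertk and Cd163 did not pass the filter. No tested marker of hepatoblasts, granulocytes, lymphoid cells, megakaryocytes or endothelium was called, but only 1 of 6 lymphoid and 3 of 6 endothelial and stromal markers were tested. Hepatoblast markers summed to 1282 to 2105 in Th3/Th3, 1363 to 2615 in Th3/+ and 1411 to 1970 in wild type arrays. Sums of different marker lists come from different probe sets and were not compared with each other. The part of these marker shifts in the results on initiation factors was not tested, and in sorted bulk samples fewer cells of a stage and less RNA per cell cannot be told apart. Medians of the 9 arrays lay between 4.97 and 5.05.

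To place the genes the results turn on, promoter windows from RefSeq (mouse build GRCm38.p6, 250 bases before to 50 after the transcription start) were read for 33 of the 43 genes. They are shown for 3 eIF2B genes, for Eif3k and for the 2 genes that fell, 5′ to 3′ on the gene's strand, with matches to the searched motifs in capitals.
Eif2b2, chr12:85219231-85219530, plus strand: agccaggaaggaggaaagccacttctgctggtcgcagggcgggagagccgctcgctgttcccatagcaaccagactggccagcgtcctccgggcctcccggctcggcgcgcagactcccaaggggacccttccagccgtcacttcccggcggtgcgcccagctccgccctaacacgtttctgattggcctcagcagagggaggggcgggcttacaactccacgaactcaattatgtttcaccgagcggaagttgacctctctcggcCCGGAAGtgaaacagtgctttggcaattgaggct
Eif2b4, chr5:31193090-31193389, minus strand: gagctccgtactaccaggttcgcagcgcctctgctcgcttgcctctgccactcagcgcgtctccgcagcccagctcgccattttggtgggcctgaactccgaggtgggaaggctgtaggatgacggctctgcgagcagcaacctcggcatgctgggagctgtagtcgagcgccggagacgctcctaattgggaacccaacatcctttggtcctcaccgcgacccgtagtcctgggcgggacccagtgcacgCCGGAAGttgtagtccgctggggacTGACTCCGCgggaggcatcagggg
Eif2b5, chr16:20498567-20498866, plus strand: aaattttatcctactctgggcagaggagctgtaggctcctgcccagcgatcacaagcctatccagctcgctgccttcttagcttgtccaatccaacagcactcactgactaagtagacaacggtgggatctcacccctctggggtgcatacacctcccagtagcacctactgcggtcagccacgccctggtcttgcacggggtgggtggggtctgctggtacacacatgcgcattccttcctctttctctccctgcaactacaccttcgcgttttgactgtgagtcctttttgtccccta
Eif3k, chr7:28981839-28982138, minus strand: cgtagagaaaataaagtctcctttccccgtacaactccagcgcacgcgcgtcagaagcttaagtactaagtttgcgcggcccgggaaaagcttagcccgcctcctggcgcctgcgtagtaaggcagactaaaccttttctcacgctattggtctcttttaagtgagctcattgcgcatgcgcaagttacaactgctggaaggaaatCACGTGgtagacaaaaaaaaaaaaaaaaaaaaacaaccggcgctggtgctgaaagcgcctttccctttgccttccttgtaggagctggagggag
Eif5, chr12:111537851-111538150, plus strand: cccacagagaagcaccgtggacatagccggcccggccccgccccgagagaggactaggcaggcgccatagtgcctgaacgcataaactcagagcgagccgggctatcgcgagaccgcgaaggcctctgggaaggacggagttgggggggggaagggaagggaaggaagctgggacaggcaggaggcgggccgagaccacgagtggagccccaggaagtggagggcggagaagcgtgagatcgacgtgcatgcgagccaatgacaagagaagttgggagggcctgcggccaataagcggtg
Eif5b, chr1:37997760-37998059, plus strand: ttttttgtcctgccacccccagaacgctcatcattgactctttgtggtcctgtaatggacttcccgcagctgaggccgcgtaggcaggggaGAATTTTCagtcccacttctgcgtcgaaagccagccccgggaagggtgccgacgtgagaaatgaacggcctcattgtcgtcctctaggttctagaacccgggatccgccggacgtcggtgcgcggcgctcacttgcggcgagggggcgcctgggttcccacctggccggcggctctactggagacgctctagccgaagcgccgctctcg
The capitals mark an ETS-type motif (CCGGAAG or its reverse complement) in Eif2b2 and Eif2b4, an antioxidant response motif (TGACNNNGC) in Eif2b4, the E-box CACGTG in Eif3k and a heat shock element core (GAANNTTC) in Eif5b, while the windows of Eif2b5 and Eif5 held none of the motifs that are put in capitals (pyrimidine runs at the start are not).

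Motifs were searched on both strands, apart from a pyrimidine run read on the gene's strand, in the 45 windows of the 33 genes and in all 32851 windows of the table. The E-box CACGTG, which MYC and related factors can bind, was in 11 member windows (24.4%) and in 7.15% of all windows. The ETS-type motif was in 17 member windows (37.8%) and in 8.86% of all. An ATF4-type motif (TGATGNAA) was in 0 member windows and in 3.97% of all, and the erythroid GATA motif AGATAA was in 2 member windows (4.44%) and in 11.2% of all. The heat shock core was in 5 (11.1%, against 7.86% of all windows) and the antioxidant motif in 6 (13.3%, against 12.4% of all). A pyrimidine run near the start was in 11 member windows (24.4%) and in 17.2% of all. It was read as a C followed by at least 6 pyrimidines, between 10 bases before and 30 after the start. A run of this kind at the cap marks mRNAs under mTORC1 control, but the search did not require that position. The run was found for 9 genes: Eif1ad, Eif2b2, Eif2b5, Eif3f, Eif3k, Eif3l, Eif4b, Eif4e and Eif4enif1. Windows of expressed genes differ from those of all genes: among genes tested here the E-box was in 9.53%, the ETS-type motif in 15.9%, the ATF4-type motif in 2.3%, the GATA motif in 6.98%, the heat shock core in 5.83%, the antioxidant motif in 14.2% and the pyrimidine run in 17.2%. These matches are letters in a window and show no binding.

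The fall was largest for Eif5, the GTPase-activating protein of eIF2. Eif5 had log2 signals of 10.82, 11.21 and 11.03 in Th3/Th3 arrays, 11.92, 12.16 and 12.06 in Th3/+ arrays, and 11.89, 12.10 and 12.25 in wild type arrays. All 3 Th3/Th3 arrays lay below every array of the other genotypes, and Th3/+ arrays overlapped wild type. Eif5 fell by 1.06 on the log2 scale in Th3/Th3 against wild type (SE 0.12, 95% interval -1.33 to -0.78, 2.08-fold, adjusted p = 0.000872) and by 1.03 against Th3/+ (adjusted p = 0.00186). Eif5b, the GTPase that joins the ribosomal subunits, read 9.68, 10.23 and 10.35 in Th3/Th3, 10.78, 11.06 and 11.00 in Th3/+, and 10.77, 10.89 and 11.10 in wild type arrays. Here too the Th3/Th3 arrays were lower than all others. The difference was -0.83 against wild type (SE 0.18, 95% interval -1.23 to -0.44, 1.78-fold, adjusted p = 0.0141) and -0.86 against Th3/+ (adjusted p = 0.0186). The remaining genes of the group encode eIF5A, which carries the amino acid hypusine and helps ribosomes past difficult stretches: Eif5a differed by -0.08 (95% interval -0.32 to 0.16) and Eif5a2 by -0.08 (95% interval -0.46 to 0.30), and neither passed the test. The group's median difference was -0.46, with all 4 genes below 0.

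Both genes of eIF2B that passed encode regulatory subunits, and all 5 subunit genes were above 0 in Th3/Th3 against wild type, with a median of 0.48. Of all probe sets tested, 50.0% were above 0 and 7.31% were called higher. Eif2b2 encodes the beta subunit and read 8.30, 8.65 and 8.89 in Th3/Th3, 7.31, 7.75 and 7.86 in Th3/+, and 7.65, 7.34 and 7.81 in wild type arrays. The Th3/Th3 arrays were above all 6 others, and the Th3/+ and wild type arrays were mixed. The rise was 1.01 against wild type (SE 0.21, 95% interval 0.55 to 1.48, 2.02-fold, adjusted p = 0.0123) and 0.97 against Th3/+ (adjusted p = 0.0228), and without wild type replicate 2 its adjusted p against wild type was 0.051. Eif2b4, the delta subunit, read 7.70, 7.56 and 7.57 in Th3/Th3, 7.21, 7.32 and 7.16 in Th3/+, and 7.31, 6.88 and 7.20 in wild type arrays. Its arrays were apart in the same way, with a smaller gap. The difference was 0.48 (SE 0.13, 1.4-fold, adjusted p = 0.0456), a call that held under 4 of 17 alternative settings. Eif2b5, the catalytic epsilon subunit, read 7.70, 7.55 and 7.70 in Th3/Th3, 6.18, 6.83 and 7.15 in Th3/+, and 6.75, 6.59 and 7.14 in wild type arrays. It was higher in Th3/Th3 than in Th3/+ (difference 0.93, SE 0.24, 1.91-fold, adjusted p = 0.0458), while the difference of 0.82 from wild type had an adjusted p of 0.0518, which ranged from 0.0152 to 0.168 over 17 alternative settings and passed under 6 of them. The call against Th3/+ was lost, for Eif2b2 as well, with only those genotypes in the fit. Both calls were also lost without Th3/+ replicate 1 or 2 and without Th3/Th3 replicate 2 or 3. Eif2b1 and Eif2b3, the alpha and gamma subunits, differed from wild type by 0.24 and 0.31 and did not pass.

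Among the 3 genes grouped with eIF2, none was called in any comparison, and their median difference was 0.10. Eif2a, a separate initiator tRNA-binding factor that is not the alpha subunit of eIF2, had the smallest p of the group with a difference of 0.52 in Th3/Th3 against wild type (adjusted p = 0.0957), with adjusted p from 0.0187 to 0.26 over the alternative settings and under 0.05 in 3 of 17. Eif2s2, the beta subunit of eIF2, differed by 0.05 (95% interval -0.28 to 0.39) and Eif2d, a factor in tRNA delivery and ribosome recycling, by 0.10 (95% interval -0.14 to 0.34). Whether the eIF2 and eIF2B genes differ in their response was not tested.

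The scaffold eIF3 had 11 tested subunit genes, of which 3 rose, 0 fell and 10 were above 0 in Th3/Th3 against wild type (median 0.41). Among all probe sets tested 7.31% were called higher, 4.98% were called lower and 50.0% were above 0. The eIF3 counts were not tested against these shares. All 3 that rose belong to the octamer of PCI and MPN domain subunits, which has 8 of the 11 genes (median 0.41). Of the 3 other subunit genes, none of which passed, Eif3d differed by 0.41 (adjusted p = 0.124), Eif3b by 0.07 and Eif3i by 0.09, and a difference between these subunit classes was not tested. Eif3k read 12.60, 12.56 and 12.41 in Th3/Th3, 12.22, 12.26 and 12.38 in Th3/+, and 12.10, 12.19 and 12.21 in wild type arrays. The 3 genotypes were stacked in that order with no overlap, and the rise over wild type was 0.36 (SE 0.07, 1.28-fold, adjusted p = 0.00923). Eif3h, a subunit with an MPN domain, read 12.62, 12.56 and 12.63 in Th3/Th3, 12.12, 12.50 and 12.45 in Th3/+, and 12.18, 12.14 and 12.25 in wild type arrays. Its Th3/Th3 arrays were the highest, and the rise was 0.41 (SE 0.09, 1.33-fold, adjusted p = 0.0182). Eif3e, which carries a PCI domain and in human cells contacts eIF4G, read 9.68, 9.88 and 10.00 in Th3/Th3, 9.60, 9.66 and 9.43 in Th3/+, and 9.11, 9.49 and 9.21 in wild type arrays. Its Th3/Th3 arrays again lay above the rest, and the rise was 0.58 (SE 0.14, 1.49-fold, adjusted p = 0.0263). Over 17 alternative settings the call of Eif3k held under 17, of Eif3h under 14 and of Eif3e under 12. Eif3m (difference 0.65, adjusted p = 0.0721) and Eif3f (difference 0.51, adjusted p = 0.0879) did not pass. Eif3a, the largest subunit, was the 1 gene of the 11 below 0, with a difference of -0.46 (adjusted p = 0.216), and its Th3/Th3 arrays lay below the wild type arrays. Eif3f and Eif4g2 lie within 10 Mb of the beta-globin cluster on chromosome 7, and neither was called.

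Of the factors that unwind mRNA, Eif4a2 and Eif4h rose among 5 tested genes (median difference 0.61), where 7.31% of all probe sets were called higher. Eif4a2, a paralog of the main eIF4A helicase, read 9.68, 9.50 and 9.77 in Th3/Th3, 9.16, 9.38 and 9.39 in Th3/+, and 8.86, 9.14 and 9.13 in wild type arrays. The 3 genotypes again did not overlap, and the rise over wild type was 0.61 (SE 0.13, 1.52-fold, adjusted p = 0.0165). This call held under 15 of 17 alternative settings. Eif4h, which stimulates eIF4A, read 10.39, 9.66 and 10.20 in Th3/Th3, 9.62, 9.33 and 9.26 in Th3/+, and 9.57, 9.36 and 9.21 in wild type arrays. Th3/Th3 replicate 2 was only just above the highest other array, and the rise of 0.70 (SE 0.19, 1.63-fold, adjusted p = 0.0459) was called under 6 of 17 alternative settings. Eif4b, another cofactor of eIF4A, differed by 0.77 (adjusted p = 0.0586), while Eif4a1 differed by 0.18 (adjusted p = 0.487) and Eif4a3, a helicase of the exon junction complex, by 0.10 (adjusted p = 0.681).

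In the cap-binding branch Eif4ebp1 rose, and none of the 4 tested genes of the eIF4E group and the 2 eIF4G genes was called. The eIF4E group, formed by symbol, held Eif4e, Eif4e2, Eif4e3 and Eif4enif1, whose product shuttles eIF4E and is not itself an eIF4E. Eif4ebp1, the repressor of eIF4E that mTORC1 inactivates, read 7.63, 7.44 and 7.98 in Th3/Th3, 7.09, 7.07 and 7.13 in Th3/+, and 6.85, 6.84 and 6.41 in wild type arrays. The genotypes formed 3 separate steps, with Th3/+ between the other genotypes on every array. The rise over wild type was 0.98 in Th3/Th3 (SE 0.17, 95% interval 0.60 to 1.36, 1.98-fold, adjusted p = 0.00555) and 0.39 in Th3/+ (unadjusted p = 0.043, adjusted p = 1.0), and Th3/Th3 differed from Th3/+ by 0.59 (adjusted p = 0.0714). Eif4ebp2, its paralog, differed by -0.17 in Th3/Th3 against wild type (95% interval -0.51 to 0.18, adjusted p = 0.566). Among the 4 tested genes of the eIF4E group the smallest p belonged to Eif4e3, a relative of eIF4E that is close to the detection floor, with a difference of 0.15 (adjusted p = 0.354). Eif4e itself differed by 0.11 (95% interval -0.15 to 0.38). Of the eIF4G scaffold genes, Eif4g2, which lacks the eIF4E-binding region, differed by -0.21 (adjusted p = 0.254) and Eif4g3 by -0.01 (95% interval -0.21 to 0.20).

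At the small subunit, none of the 4 genes of the eIF1 group was called (median difference -0.05). Eif1ax, an eIF1A gene, had the smallest p with a difference of -0.24 (adjusted p = 0.0955), and its Th3/Th3 arrays were below the wild type arrays. At the large subunit, Eif6, which keeps free large subunits from joining small ones and acts in their maturation, rose. Eif6 read 8.12, 7.99 and 7.88 in Th3/Th3, 7.26, 7.43 and 7.71 in Th3/+, and 7.37, 7.40 and 7.47 in wild type arrays. All Th3/Th3 arrays were higher than all others, with a rise of 0.58 over wild type (SE 0.14, 1.5-fold, adjusted p = 0.0251) and a difference of 0.53 from Th3/+ (adjusted p = 0.0517). The call against wild type held under 12 of 17 alternative settings.

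**Figure D2:**
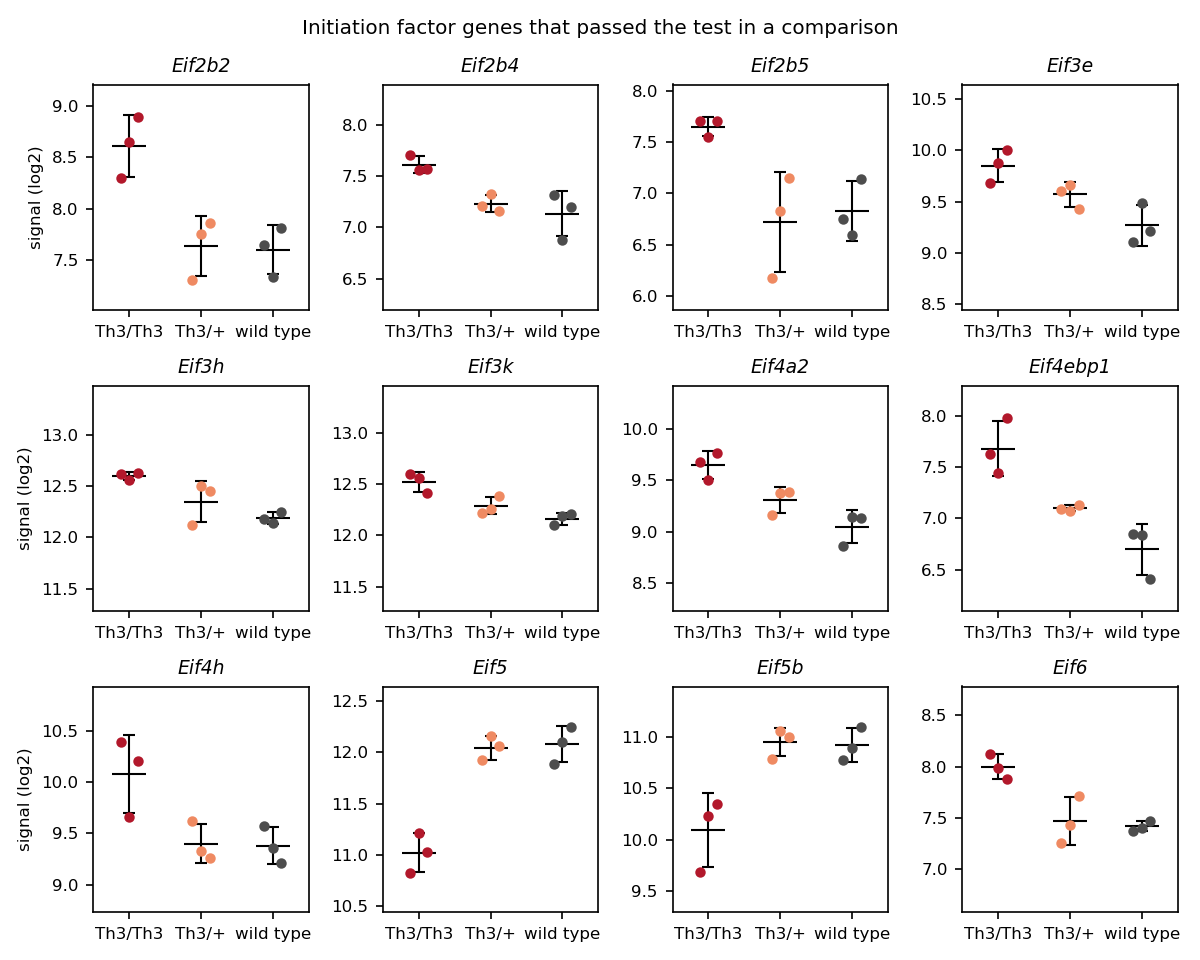
Log2 signal of the initiation factor genes that passed the test in any comparison, in Th3/Th3, Th3/+ and wild type arrays; points are arrays, wide bars are genotype means, capped lines are ± 1 SD (n = 3), and each panel spans the same number of log2 units without starting at 0. In the panels of Eif5 and Eif5b the Th3/Th3 points sit below all others, and in the panel of Eif4ebp1 the genotypes form 3 steps.

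In Th3/+ erythroblasts no initiation factor gene was called against wild type, where 0.0282% of all probe sets (5 of 17742) were called. At an unadjusted p under 0.05 limma gave 1 of the 41 genes, Eif4ebp1, against 3.64% of all probe sets, and the count of calls was 0 under every alternative run. The median difference of the 41 genes was 0.07. The arrays of Th3/+ and wild type did not overlap for 6 genes (14.6%), all with Th3/+ higher, against 7.63% of all probe sets (4.4% higher and 3.22% lower). Between Th3/Th3 and Th3/+, 2 genes were higher (Eif2b2 and Eif2b5) and 2 lower (Eif5 and Eif5b), or 9.76% of the 41, against 7.27% of all probe sets (4.01% higher and 3.26% lower). Their arrays did not overlap for 16 genes (39.0%), 12 with Th3/Th3 higher and 4 lower, against 22.8% of all probe sets (12.9% higher and 9.93% lower). These comparisons share arrays with the one against wild type. The count higher was 0 when the fit held only these 2 genotypes, 0 to 3 when 1 array was left out, and 1 without both arrays that lay farther from their genotype. It was 1 without Th3/Th3 replicate 2 and 1 without Th3/Th3 replicate 3, each time a gene other than Eif2b2 and Eif2b5.

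The Th3/+ mean lay between the means of the other genotypes for 32 of 41 genes (78.0%), against 49.5% of all probe sets. This count includes genes with a Th3/+ mean close to wild type, such as Eif5 (Th3/+ minus wild type -0.03), Eif2b2 (0.04) and Eif4h (0.02). The shares were not matched for the size of the Th3/Th3 difference. A test of Th3/+ against the midpoint of Th3/Th3 and wild type called 0 of the 41 genes, where 0.0789% of all probe sets were called (0.062% higher and 0.0169% lower). At an unadjusted p under 0.05 limma gave 5 of the 41 (12.2%), against 7.83% of all probe sets. These were Eif5 (0.50), Eif5b (0.44) and Eif5a2 (0.34), above the midpoint, and Eif2b2 (-0.46) and Eif2b5 (-0.52), below it.

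The Th3/+ arrays were the least alike over the initiation factor genes. The median of the 41 genes relative to the wild type mean was 0.21, 0.21 and 0.24 in the Th3/Th3 arrays, with 30, 32 and 29 genes above it. It was -0.06, 0.14 and 0.24 in the Th3/+ arrays, with 15, 35 and 35 genes above the wild type mean. In the wild type arrays it was -0.01, -0.05 and 0.07, with 18, 15 and 31 genes above that mean. Wild type replicate 3 thus had a count like those of the Th3/Th3 arrays. Th3/+ replicate 1 thus stood near wild type and replicate 3 at the level of Th3/Th3. The median SD within a genotype over the 41 genes was 0.16 in Th3/Th3, 0.19 in Th3/+ and 0.16 in wild type, against 0.15, 0.12 and 0.12 over all probe sets in the same genotypes. The most variable gene was Eif3a in Th3/Th3 (SD 0.40) and Eif2b3 in both Th3/+ (SD 0.54) and wild type (SD 0.44).

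**Figure D3:**
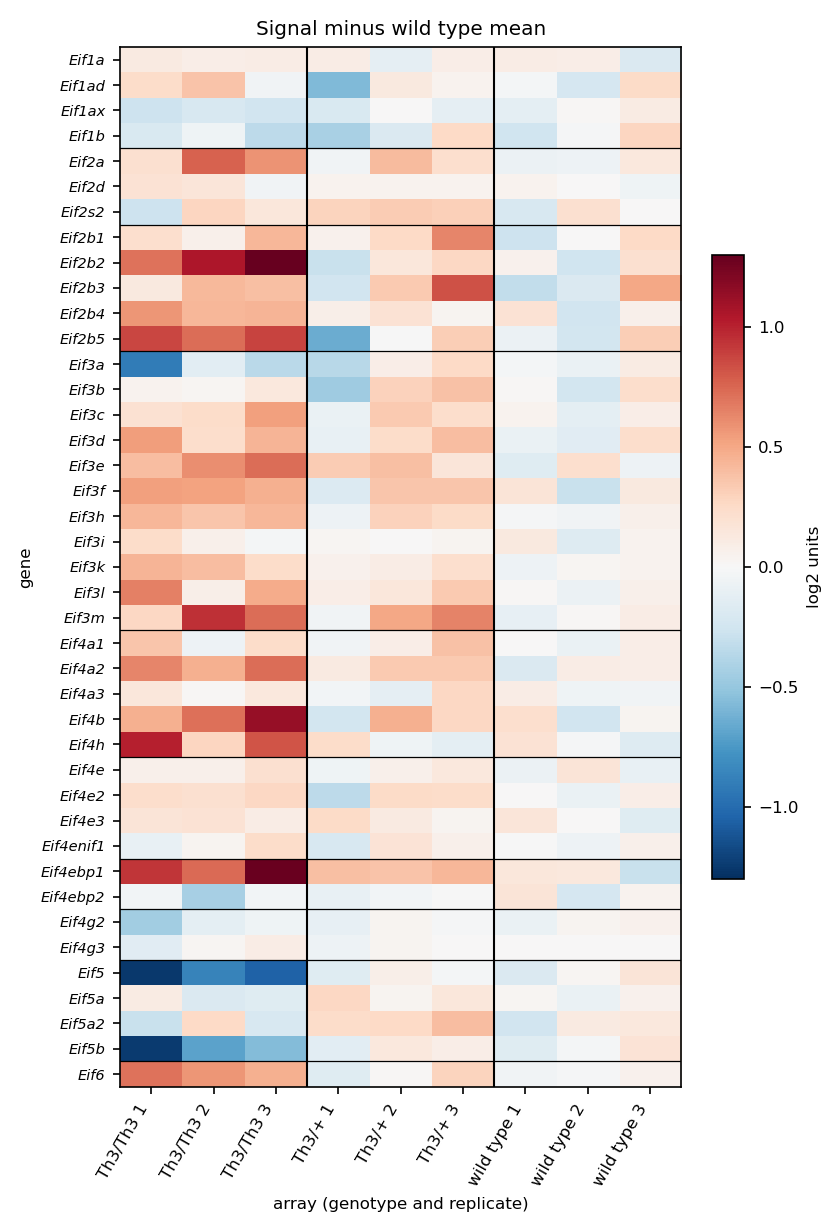
Log2 signal of each tested initiation factor gene on each of the 9 arrays, minus that gene's wild type mean; columns are arrays by genotype, rows are genes by factor group, and colour gives the difference. The Th3/Th3 columns are high for most eIF2B and eIF3 rows and low for Eif5 and Eif5b, and Th3/+ replicate 1 differs from Th3/+ replicates 2 and 3.

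Of the 7 genes with several probe sets, 6 had more than 1 tested, and most readings of the same gene lay close together in Th3/Th3 against wild type. Eif4e gave 0.11, 0.23 and -0.01. Eif3m gave 0.65 and 0.58, Eif4a1 gave 0.18, 0.15 and 0.11, Eif5a gave -0.08 and -0.17, and Eif2s2 gave 0.05 and 0.01. Eif4enif1, whose product shuttles eIF4E into the nucleus, gave 0.06 and 0.12. None of these probe sets was called. A further 10 probe sets list several symbols, at least 1 of them an initiation factor name (Eif1a, Eif3j1 and Eif3j2, Eif4a3, Eif4ebp3 or Eif5), and were kept apart from the counts.

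The neighbouring steps of translation were read from lists. Of 13 tested elongation, termination and recycling factors none rose and 1 fell in Th3/Th3 against wild type (median difference 0.05), with 12.3% of all probe sets called. This was Eef2k, the kinase that inhibits elongation factor eEF2, which read 6.95, 6.97 and 7.21 in Th3/Th3, 8.35, 8.45 and 8.63 in Th3/+, and 8.75, 8.36 and 9.17 in wild type arrays. The Th3/Th3 arrays were well below all others, and Eef2k fell by 1.72 on the log2 scale (3.29-fold, adjusted p = 0.000901).

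Of 22 tested partners and regulators of initiation, 4 rose and 3 fell (median difference 0.23). Of all probe sets tested 12.3% were called, 7.31% higher and 4.98% lower. Pdcd4, an inhibitor of the eIF4A helicase, read 8.23, 8.58 and 8.64 in Th3/Th3, 7.31, 7.30 and 6.73 in Th3/+, and 7.01, 7.09 and 7.09 in wild type arrays, and rose by 1.42 (adjusted p = 0.00142). Impact, which restrains the eIF2 kinase GCN2, rose by 1.94 (adjusted p = 0.00481). Pabpc1, the poly(A)-binding protein that contacts eIF4G, read 12.49, 12.46 and 12.77 in Th3/Th3, 13.31, 13.37 and 13.38 in Th3/+, and 13.27, 13.32 and 13.38 in wild type arrays, and fell by 0.75 (adjusted p = 0.000517). Larp1, which binds mRNAs with a pyrimidine run at the cap, read 8.78, 8.92 and 9.16 in Th3/Th3, 9.82, 10.30 and 10.08 in Th3/+, and 10.30, 10.18 and 10.72 in wild type arrays, and fell by 1.45 (adjusted p = 0.00128). In each of the 3 genes given by array, every Th3/Th3 array was apart from all others. The other genes of the list that passed, named after their values were seen, were Paip2 (0.60), which sequesters the poly(A)-binding protein, and Mcts1 (0.68), a reinitiation factor, both higher, and Ppp1r15a (-0.49), a phosphatase subunit that acts on eIF2, lower. Over the 17 alternative settings the call of Mcts1 held under 13, that of Ppp1r15a under 15, and those of the other 5 genes under all 17.

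Of 5 tested genes of the hypusine and polyamine pathway, Odc1, which starts polyamine synthesis, fell by 0.39 (adjusted p = 0.00371) and Azin1, the antizyme inhibitor that spares this enzyme from degradation, by 0.57 (adjusted p = 0.035). The call of Odc1 held under all 17 alternative settings and that of Azin1 under 8 of 17. Of 14 tested mTORC1 pathway genes 2 rose and 2 fell (median difference 0.14). Rragc, a GTPase that brings mTORC1 to lysosomes, differed by 0.67 (adjusted p = 0.00793) and Sesn2, an amino acid sensor upstream of it, by 0.42 (adjusted p = 0.036). Rragd, a close paralog of Rragc, differed by -0.85 (adjusted p = 0.0288) and Rptor, the subunit of mTORC1 that binds its substrates, by -0.34 (adjusted p = 0.0446). Over the 17 alternative settings the call of Rragc held under 17, of Rragd under 11, of Sesn2 under 5 and of Rptor under 4. Of 7 mitochondrial translation factors 1 rose, the initiation factor gene Mtif3 (difference 0.69, adjusted p = 0.0452), a call that held under 6 of 17 alternative settings. The share to set beside each of these lists is 12.3% of all probe sets called (7.31% higher and 4.98% lower), and 1 of 7 is near it. The counts in these short lists were not tested against that share. In Th3/+ against wild type none of the genes of these 5 lists was called.

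**Figure D4:**
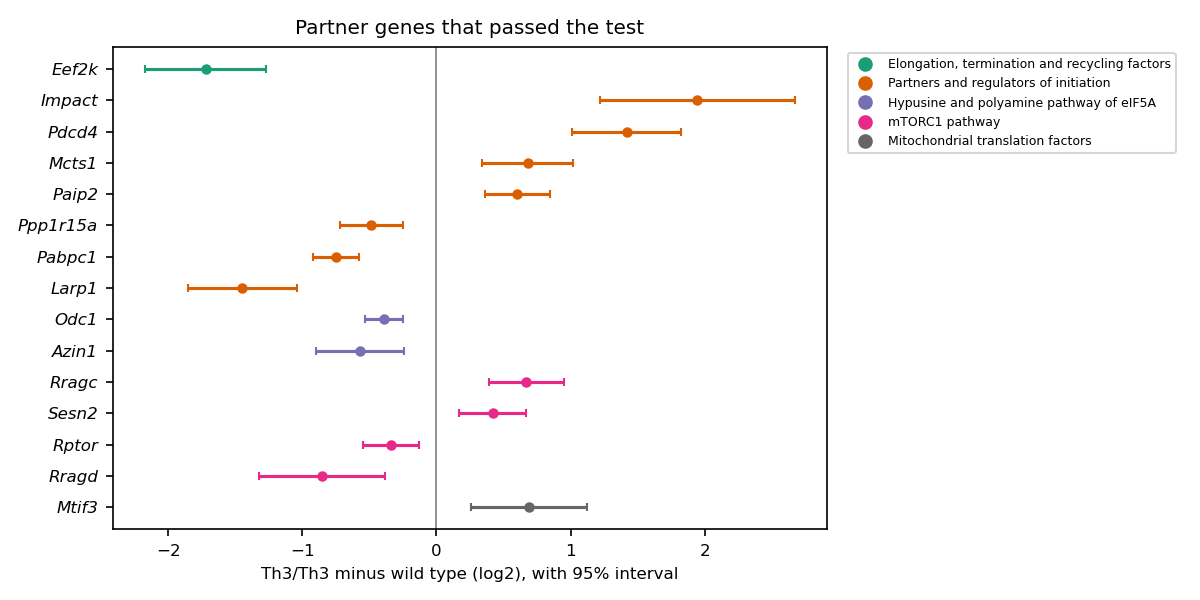
Differences in log2 signal, Th3/Th3 minus wild type, for the genes of the partner lists that passed the test, with 95% intervals; colours give the list. Eef2k, Larp1 and Pabpc1 lie left of 0, and Impact and Pdcd4 lie farthest to the right.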

How the data were processed

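Total RNA of 9 samples was read on whole-transcript arrays. The deposited values are log2 signals, 1 per probe set and array, by their range of 2.12 to 14.2 outside the control probe sets. Per the submitters' processing notes the tool was MAS5; its version and settings are not stated in the sources read here, and the values do not settle the summary method. Genotypes came from the labels. Probe sets were named through the platform annotation: of 28939 probe sets outside the control block 21789 had a single symbol, 1621 several and 5529 were not listed. A probe set was kept if at least 3 arrays gave it a value over their 40th percentile (17742 kept). Differences were fitted without further normalisation by limma 3.58.1 in R 4.3.3 (lmFit, eBayes with trend, 1 mean per genotype, all 9 arrays), two-sided, with Benjamini-Hochberg adjustment over all kept probe sets, and the fit was tested on simulated data. The number of arrays limits the precision, and an exact permutation of 3 against 3 arrays cannot give a p under 0.1.

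The members, gene lists and markers were chosen with earlier results of these data known. The text names each member called in a comparison, in groups without 1 the member with the smallest p, members of a complex beside them, untested members, and up to 4 called genes of each other list. Alternatives were no filter, a stricter filter, quantile normalisation, no trend, the replicate number as a block, only the genotypes compared, the mean over a gene's probe sets, no replicate 1 of Th3/+ and Th3/Th3, and each array left out. No scanner files were used, so background correction was not varied.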

Additional observations from a re-analysis of the deposited data

Results flagged for a closer look

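A probe set listed for both Snora28 and Eif5 gave a signal outside the comparisons above, which use probe sets with 1 symbol. Snora28 is a small nucleolar RNA hosted by the Eif5 gene. The probe set read 4.97, 5.82 and 5.45 in Th3/Th3, 6.76, 7.21 and 7.63 in Th3/+, and 6.76, 6.81 and 7.97 in wild type arrays. All Th3/Th3 arrays were below all others, with a difference of -1.77 from wild type (SE 0.35, 95% interval -2.57 to -0.97, 3.41-fold, adjusted p = 0.0112, limma) and of -1.79 from Th3/+ (adjusted p = 0.0169), while Th3/+ differed from wild type by 0.02. The small RNA and its host transcript cannot be told apart on this probe set. Groups of 3 arrays were too small for the rule that flags single outlying arrays. Distances of arrays from their own genotype are given above.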

How the results depend on the processing

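The count of initiation factor genes higher in Th3/Th3 than in wild type (9) was 7 to 12 over 8 alternatives (filters, normalisation, trend, block, genotypes in the fit, probe sets, both replicate 1 arrays of Th3/+ and Th3/Th3 out) and 4 to 12 when 1 array was left out. The count lower (2) was 2 under those 8 and 1 to 2 with 1 array out. Against Th3/+ the count higher (2) was 1 with no filter, 5 with the stricter filter, 3 with no trend, 3 with the replicate block, 0 with only the genotypes compared, 1 without both those arrays, and 0 to 3 with 1 array out. The count lower (2) was 1 with only the genotypes compared and 1 to 2 with 1 array out. The cause of these changes was not tested, apart from the fewer samples in some fits. Counts of Th3/+ against wild type and against the midpoint were 0 throughout. Replicate numbers in the labels are shared by the genotypes, but deviations of same-numbered arrays correlated from -0.125 to 0.355 (6 of 9 pairs over 0.1) and those of other numbers from -0.352 to 0.252 (4 of 18 over 0.1). The same-numbered pairs not over 0.1 were those of replicate 2 (-0.125, 0.056 and 0.067). Those of replicates 1 and 3 were 0.13 to 0.355, and what these arrays share was not tested. The labels give no batch, and the main fit did not take the numbers as pairs. With the replicate block 11 genes were higher in Th3/Th3 than in wild type, 8 of them among the 9 (Eif2b4 had an adjusted p of 0.0521). The 3 further genes included Eif2b5 (0.031) and Eif2a (0.0466). Of the initiation factor genes called in a comparison, none changed sign in Th3/Th3 against wild type under these alternatives. The calls of Eif3k, Eif4ebp1 and Eif5 against wild type held under all 17 settings, and those of Eif2b2 and Eif5b under 16. The calls of Eif2b4, Eif3e, Eif3h, Eif4a2, Eif4h and Eif6 held under fewer, as given with each gene. In Th3/+ against wild type, where none was called, Eif2b5 was 0.16, Eif4h -0.09 and Eif5 0.03 without both those arrays, and Eif4h -0.02 and Eif5b -0.03 after quantile normalisation. With 1 array out the differences spanned -0.09 to 0.21 for Eif2b2, -0.02 to 0.19 for Eif2b4, -0.32 to 0.16 for Eif2b5, -0.09 to 0.11 for Eif4h, -0.13 to 0.05 for Eif5, -0.05 to 0.12 for Eif5b and -0.07 to 0.15 for Eif6.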
